A study of Mus musculus with 15 samples.

Results

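The collagen genes are described here across 4 groups of mouse perivascular fat. They were taken as every protein-coding gene of the deposited count table whose mouse symbol has the form Col, number, a, number, and the table held 44 of them among 43352 genes. By the structure of the encoded chain, 11 are fibrillar, 6 are type IV chains of basement membranes and 27 are others. The others comprise 6 type VI chains, 9 fibril-associated chains, 4 transmembrane chains, 3 short chains, 2 multiplexins and 3 anchoring or remaining chains. A total of 42 were tested. Col2a1 and Col9a1, both of cartilage, were not, since they held 0 to 10 and 0 to 9 counts per library and were removed by the filter on low counts. A count of 0 in a library allows for up to 3 counts.

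Collagens are secreted proteins whose alpha chains wind around each other into a rope-like helix. Fibrillar collagens assemble into the tension-bearing fibres of connective tissue, and are made mainly by fibroblasts. Type IV collagen forms the sheet-like network of basement membranes, which surround each adipocyte, smooth muscle cell and vessel wall. Type VI collagen forms beaded filaments next to the basement membrane and is abundant in fat.

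RNA was measured by sequencing of polyadenylated transcripts in fat around the thoracic aorta (tPVAT, which resembles brown fat) and the abdominal aorta (aPVAT, which is closer to white fat), from mice aged 11 weeks. Control mice were Prdm16flox. The conditional knockout mice (cKO) were Prdm16flox, AdipoQCre+, so that Prdm16, a transcriptional regulator of brown and beige fat, is targeted in adipocytes while fibroblasts, vessel cells and other cells keep the gene. All groups carried the floxed allele, and no group had Cre without it. Each group had 4 libraries, apart from aPVAT cKO, which had 3 (numbers 1, 3 and 4). The aPVAT cKO number 2 was not analysed here. Nothing in the labels says that libraries came from separate animals, so p-values measure only the spread between these samples. In bulk tissue, fewer cells of a type and less RNA per cell cannot be told apart.

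Total counts per library ranged from 37761133 to 68735385. The targeted gene Prdm16 was lower in cKO in both depots. It stood between 41.1 and 55.6 CPM (counts per 1000000 counts) in tPVAT controls and between 21.2 and 23.8 CPM in tPVAT cKO (log2 fold change -1.08, adjusted p = 2.22e-06 by edgeR). It stood between 21.4 and 26.8 CPM in aPVAT controls and between 14.7 and 18.3 CPM in aPVAT cKO (-0.57, adjusted p = 0.00992, but 0.0692 without aPVAT cKO 1, 0.0591 without aPVAT cKO 3 and 0.0739 in a fit without tPVAT). Mitochondrial transcripts took 26.5% to 36.4% of counts in tPVAT and 13% to 16% in aPVAT. Structural RNA took 2.24% in aPVAT cKO 4, 0.929% in aPVAT control 2 and at most 0.213% in the other libraries. CPM is scaled here by the trimmed mean of M-values (TMM). Marker lists were present for adipocytes, smooth muscle, endothelium and fibroblasts in every library, at summed levels of at least 433 CPM. The kidney marker Umod was at 0 in all 15 libraries, and Sftpc of lung, Krt5 of keratinocytes, Matn1, Matn3 and Ucma of cartilage and Bglap, Ibsp, Sp7 and Dmp1 of bone were under 0.5 CPM in all of them. Slc12a1, the other kidney marker, was also under 0.5 CPM in all libraries, and the kidney list summed to at most 0.0914 CPM. Other markers of lung, keratinocytes, cartilage and bone were present. By library, the whole lists summed to 8.78 to 22.7 CPM for cartilage, 0.875 to 3.51 for bone, 1.36 to 4.79 for keratinocytes and 0.158 to 0.68 for lung. Mesothelium markers summed to 12 to 143 CPM.

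Col3a1, Col1a1, Col1a2, Col4a1 and Col4a2 led the collagen transcripts in both depots. To compare genes, levels were divided by the merged length of all exons of a gene (CPM per kb). In tPVAT controls the order was Col3a1 at 76.5 ± 12 CPM per kb (SD, n = 4), Col4a1 at 74.6 ± 6.01, Col4a2 at 64.9 ± 4.11, Col1a1 at 60.9 ± 9.37 and Col1a2 at 42.2 ± 4.28. Col3a1 and Col4a1 differed by less than their SDs, as did Col4a2 and Col1a1, while Col4a1 lay above Col4a2, and Col1a1 above Col1a2, by more than either SD. The levels that followed were 36.4 CPM per kb for the type VI chain Col6a1, 24.1 for the multiplexin Col18a1 and 21.4 for Col6a2. With the length of the longest coding transcript in place of all exons, Col3a1 stood at 135, Col1a2 at 98.1, Col4a1 at 84.1, Col1a1 at 67.4 and Col4a2 at 66.6 CPM per kb. Col1a2 moved most because its exons cover 12426 bases in all against 5348 in its longest coding transcript. At the low end, Col24a1 and Col25a1 held 124 and 64 counts over all 15 libraries, against 1029114 for Col3a1.

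**Figure D1:**
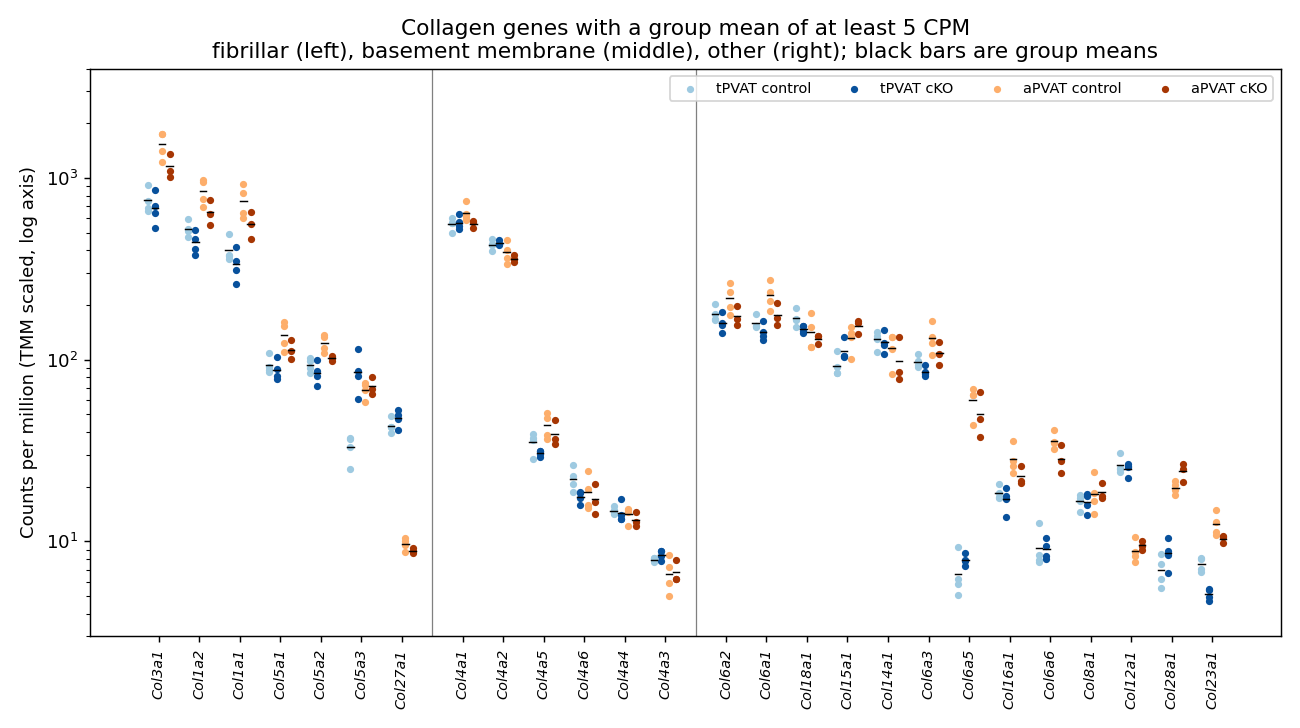
Level of each collagen gene that reached a group mean of at least 5 CPM, in CPM on a log axis, with a point for each library and a bar for each group mean. Col3a1, Col1a2 and Col1a1 are the highest fibrillar genes and Col4a1 and Col4a2 the highest basement membrane genes, Col5a3 is low in tPVAT controls alone, and Col27a1 and Col12a1 are low in both aPVAT groups.

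The make-up of the collagen transcripts separated the depots. All collagens held 0.277% to 0.358% of counts in tPVAT controls, 0.257% to 0.378% in tPVAT cKO, 0.641% to 0.847% in aPVAT controls and 0.546% to 0.697% in aPVAT cKO. These are shares of raw totals, of which mitochondrial transcripts took more in tPVAT. With total counts the median log2 fold change of all genes was also above 0 in aPVAT against tPVAT, at 0.784 in controls and 0.694 in cKO. Fibrillar chains held 42.1% ± 1.48 (SD, n = 4) of the summed level per length in tPVAT controls and 53.5% ± 2.08 (n = 4) in aPVAT controls. In cKO they held 40.5% ± 2.59 (n = 4) in tPVAT and 49.9% ± 2.29 (n = 3) in aPVAT. The share lay between 37.2% and 44.1% in the 8 tPVAT libraries and between 47.9% and 56.6% in the 7 aPVAT libraries, so the depots did not overlap, while the genotypes did within each depot. Type IV chains held 30.3% ± 1.51 and 32.3% ± 1.83 in tPVAT controls and cKO, and 22.2% ± 1.33 and 24.2% ± 2.87 in aPVAT controls and cKO. Other collagens held 27.5%, 27.2%, 24.3% and 25.9% in the same order. The summed fibrillar level was 187 to 249 CPM per kb in tPVAT controls and 306 to 439.7 in aPVAT controls. That of the type IV chains was 137 to 162 and 138 to 182 CPM per kb, which overlapped. With the coding transcript length the fibrillar share was higher in every group, at 50.2% and 48.3% in tPVAT controls and cKO and 61.3% and 57.8% in aPVAT controls and cKO.

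In tPVAT, the cKO raised 1 collagen and lowered 1, and the other 40 of 42 did not pass the test. Col5a3, a fibrillar chain that joins type V collagen heterotrimers, was higher, and Col23a1, a transmembrane collagen, was lower. A gene was called when its p from edgeR's quasi-likelihood test, adjusted over all 19645 genes tested, was under 0.05. In this comparison 12% of all genes were called, 5.44% higher and 6.61% lower, so the share of collagens called was below the background. The median log2 fold change of the 42 collagens was -0.06, against -0.01 over all genes tested.

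Col5a3 lies on chromosome 9 from 20770050 to 20815067, minus strand (GRCm38). It stood at 33.1, 36.5, 24.9 and 37 CPM in tPVAT controls 1 to 4 and at 81.4, 115, 87.1 and 60.5 CPM in tPVAT cKO 1 to 4. Every cKO library was above every control, with means of 32.9 ± 5.59 and 86.1 ± 22.6 CPM (SD, n = 4 each). The log2 fold change was 1.39 (SE 0.165, adjusted p = 3.88e-05), a ratio of means of 2.62. It was called in all 25 alternatives run, with a log2 fold change between 1.22 and 1.52. None of the 6 other tested protein-coding genes within 100000 bases of Col5a3, among them Dnmt1 and Olfm2, was called (adjusted p 0.174 to 0.628).

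Col23a1 lies on chromosome 11 from 51289920 to 51583918, plus strand. It stood at 8.09, 7.04, 6.75 and 8.02 CPM in tPVAT controls and at 4.67, 5.49, 5.37 and 4.93 CPM in tPVAT cKO. The groups did not overlap. The log2 fold change was -0.55 (SE 0.105, adjusted p = 0.00273), and it was called in all 25 alternatives (-0.59 to -0.47). In aPVAT its levels were 14.9, 11.3, 12.8 and 10.9 CPM in controls and 10.7, 9.76 and 10.6 CPM in cKO. These did not overlap either, but the change of -0.27 (SE 0.109) did not pass the test (adjusted p = 0.3).

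The stretch just before the start of both genes is shown because they are the collagens called in tPVAT. They are RefSeq sequence on GRCm38.p6, 5′ to 3′ on the strand of the gene, with matches to 5 motifs on either strand in capitals. These motifs were searched by exact letters, apart from 2 free bases in the EBF site, which lie between the letters TCCC and GGGA. The others are the CCAAT box, the GC box, spelled GGGCGG, the TATA box, spelled with the letters TATAAA, and the nuclear receptor half-site, spelled with the letters AGGTCA. The windows, of 250 bases each, are chr9:20815068-20815317 for Col5a3 (minus strand) and chr11:51289670-51289919 for Col23a1 (plus strand).
Col5a3: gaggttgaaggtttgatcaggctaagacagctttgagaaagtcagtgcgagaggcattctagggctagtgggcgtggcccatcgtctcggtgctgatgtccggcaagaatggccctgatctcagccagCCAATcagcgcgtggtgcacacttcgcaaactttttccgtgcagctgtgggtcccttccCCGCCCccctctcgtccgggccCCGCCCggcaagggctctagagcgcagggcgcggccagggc
Col23a1: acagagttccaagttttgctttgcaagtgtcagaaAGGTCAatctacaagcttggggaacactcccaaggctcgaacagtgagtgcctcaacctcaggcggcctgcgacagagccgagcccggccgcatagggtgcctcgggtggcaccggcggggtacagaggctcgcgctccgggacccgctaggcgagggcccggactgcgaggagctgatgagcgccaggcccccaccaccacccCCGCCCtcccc
The Col5a3 window held 1 CCAAT box and 2 GC boxes, and the Col23a1 window held 1 GC box and 1 half-site. The CCAAT box stood in 33.8% of 32851 mouse promoters of this length, the GC box in 32.7%, the TATA box in 12.4%, the half-site in 14% and the EBF site in 0.779%. Of 38 promoters of 35 collagens matched by symbol, 13 held a CCAAT box, 22 a GC box, 5 a TATA box, 8 a half-site and 0 an EBF site. A match is a run of letters and not a measured site.

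The abundant fibrillar genes did not pass the test in tPVAT. Col1a1, the main chain of type I collagen, stood at 376, 491, 374 and 357 CPM in controls and 348, 417, 313 and 261 CPM in cKO. Col1a2, its partner, stood at 522, 598, 508 and 471 CPM and 462, 518, 409 and 379 CPM. Col3a1, which forms type III collagen, stood at 749, 918, 685 and 654 CPM and 701, 854, 639 and 529 CPM. All overlapped between genotypes, with log2 fold changes of -0.26 (SE 0.164), -0.25 (SE 0.131) and -0.14 (SE 0.156) and adjusted p of 0.347, 0.25 and 0.61. Control 2 was the highest control and cKO 2 the highest cKO library for each of these.

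None of the type IV chains passed either. Col4a1 stood at 563, 605, 496 and 562 CPM in tPVAT controls and 574, 634, 543 and 522 CPM in cKO. Col4a2, which joins Col4a1 in the common type IV trimer, stood at 428, 463, 396 and 430.4 CPM and 432, 457, 433 and 427 CPM. Both genes overlapped between genotypes. The 6 type IV chains ranged from -0.33 (Col4a6) to 0.09 (Col4a3) on the log2 scale, and none was called.

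Among the others, Col6a3, the long chain of type VI collagen from which the peptide endotrophin is cut, stood at 98.9, 107, 93.3 and 90.9 CPM in tPVAT controls and 85.6, 93.2, 80.9 and 83.6 CPM in cKO. Col15a1, a multiplexin of the basement membrane zone, stood at 91.3, 111, 84 and 84.1 CPM and 103, 134, 105 and 105 CPM. Col18a1, the multiplexin that yields endostatin, stood at 165, 192, 168 and 151 CPM and 153, 154, 141 and 143 CPM. All overlapped, with log2 fold changes of -0.18, 0.27 and -0.19 and adjusted p of 0.338, 0.188 and 0.32. Col24a1, a fibrillar chain, had a larger log2 fold change of 1.94 (SE 0.718) on 0 to 8 counts per library and did not pass (adjusted p = 0.0955). It passed in 3 alternatives, namely without tPVAT control 4 (adjusted p = 0.0221), with limma-voom and library weights (0.022) and with limma-voom and a block for animals (0.0475).

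**Figure D2:**
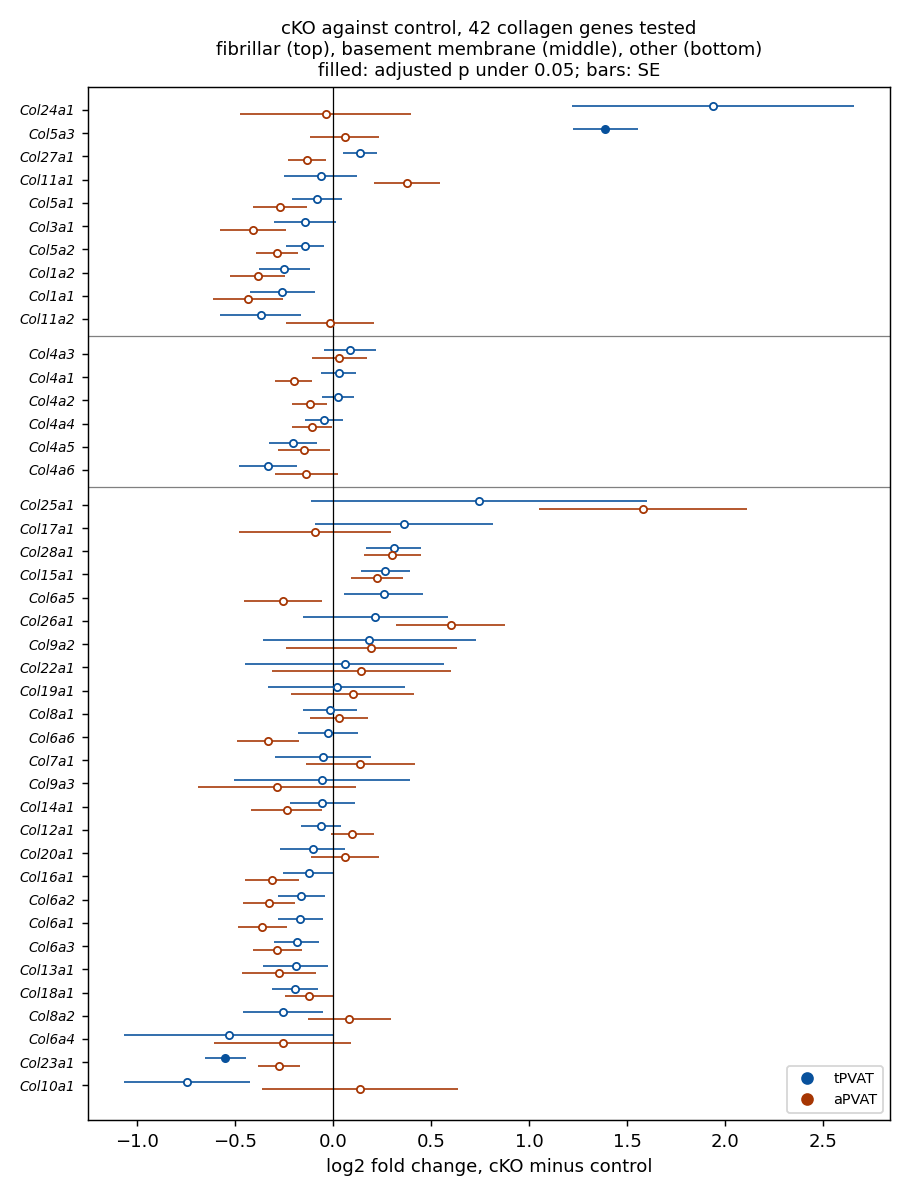
Log2 fold change of cKO against control for the 42 collagen genes tested, in tPVAT (blue) and aPVAT (brown), with bars of 1 SE and filled points for an adjusted p under 0.05. Only Col5a3 (1.39) and Col23a1 (-0.55) in tPVAT are filled, and most fibrillar and type VI genes lie below 0 in aPVAT with open points.

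Markers of other cells moved in the same tPVAT comparison. The summed level of 4 adipocyte markers lay between 5560 and 6630 CPM in controls and between 7207 and 8232 CPM in cKO, with 2 of 4 called higher, Adipoq by 0.41 and Plin1 by 0.34. Of 5 endothelial markers 3 were called lower, and their sum fell between 736 and 829 CPM in controls and between 651 and 669 CPM in cKO. Of 5 smooth muscle markers 1 (Des) was called lower, with sums of 2029 to 2671 and 1729 to 1928 CPM. None of 6 fibroblast markers was called, with sums of 466 to 545 and 433 to 553 CPM. The part of these shifts in the changes of Col5a3 and Col23a1 was not tested.

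In aPVAT, none of the 42 collagens was called between cKO and control. Of all genes, 1.53% were called, 0.743% higher and 0.789% lower. At an unadjusted p under 0.05 there were 12 of 42 collagens, against 12.4% of all genes. The smallest adjusted p was 0.198, and DESeq2 called none as well. The fibrillar genes had a median log2 fold change of -0.20, with 8 of 10 below 0, against a median of -0.01 over all genes. All 6 type VI chains lay below 0 (-0.36 to -0.26, median -0.30). Of the 42, 6 did not overlap between the groups, namely Col4a1, Col5a2 and Col23a1 (lower in cKO) and Col11a1, Col25a1 and Col26a1 (higher). Col25a1 passed the low-count filter only through aPVAT cKO, which favours such a separation. Of all genes 9.56% did not overlap, 5.80% lower and 3.76% higher in cKO.

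Col1a1 stood at 828, 928, 642 and 605 CPM in aPVAT controls 1 to 4 and at 461, 652 and 558 CPM in aPVAT cKO 1, 3 and 4. Col1a2 stood at 979, 953, 769 and 688 CPM and at 554, 758 and 637 CPM. Col3a1 stood at 1755, 1751, 1406 and 1225 CPM and at 1018, 1360.2 and 1092 CPM. Controls 1 and 2 were the highest for each, cKO 3 was the highest cKO library, and it overlapped the lower controls. Log2 fold changes were -0.43 (SE 0.178), -0.38 (SE 0.142) and -0.41 (SE 0.17), with adjusted p of 0.32, 0.256 and 0.324.

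Col4a1 stood at 749, 635, 609 and 584 CPM in aPVAT controls and 582, 529 and 571 CPM in cKO. The groups met without overlapping, and the change of -0.20 (SE 0.0953) had an adjusted p of 0.411. Col4a2 stood at 457, 403, 364 and 337 CPM and 358, 345 and 376 CPM, which overlapped (-0.12, adjusted p = 0.623). Col6a3 stood at 164, 134, 124 and 106 CPM and 93.2, 125 and 107 CPM, and the change was -0.28 (adjusted p = 0.356). Col15a1 stood at 141, 133, 150.4 and 101 CPM and 139, 160.0 and 163 CPM, with control 4 lowest, and the change was 0.23 (adjusted p = 0.516). Col18a1 stood at 181, 151, 118 and 117 CPM and 122, 135 and 135 CPM, and cKO lay within the range of controls (-0.12, adjusted p = 0.736).

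In this comparison the summed level of 6 fibroblast markers was 742 to 975 CPM in aPVAT controls and 597 to 721 CPM in cKO. Of these, Dpt, which encodes dermatopontin, a protein that binds collagen fibrils, was called lower (-0.70, SE 0.135, adjusted p = 0.0123, but 0.0864 without aPVAT cKO 1 and 0.11 in a fit without tPVAT), with 262 ± 47 CPM in controls (SD, n = 4) and 161 ± 20.3 CPM in cKO (n = 3). The sum of 3 macrophage markers was 123 to 177 CPM and 83 to 123 CPM, with none called. Their part in the collagen values of this comparison was not tested.

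The genotype effect on Col5a3 differed between depots, and it was the only collagen for which a difference passed (1 of 42, lower, against 0.784% of all genes called, 0.158% higher and 0.626% lower). In aPVAT, Col5a3 stood at 74.8, 68, 72.1 and 58.4 CPM in controls and 80.4, 68.6 and 64.6 CPM in cKO. The groups overlapped and the log2 fold change was 0.06 (SE 0.174, adjusted p = 0.917). The aPVAT effect minus the tPVAT effect was -1.33 (SE 0.241, adjusted p = 0.011). The difference was called in 23 of 24 alternatives. Without aPVAT control 2 and aPVAT cKO 4, both richest in structural RNA, it was -1.27 with an adjusted p of 0.0521. For Col23a1 the difference between effects was 0.27 (SE 0.151, adjusted p = 0.673), so its fall in tPVAT was not shown to be particular to that depot.

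**Figure D3:**
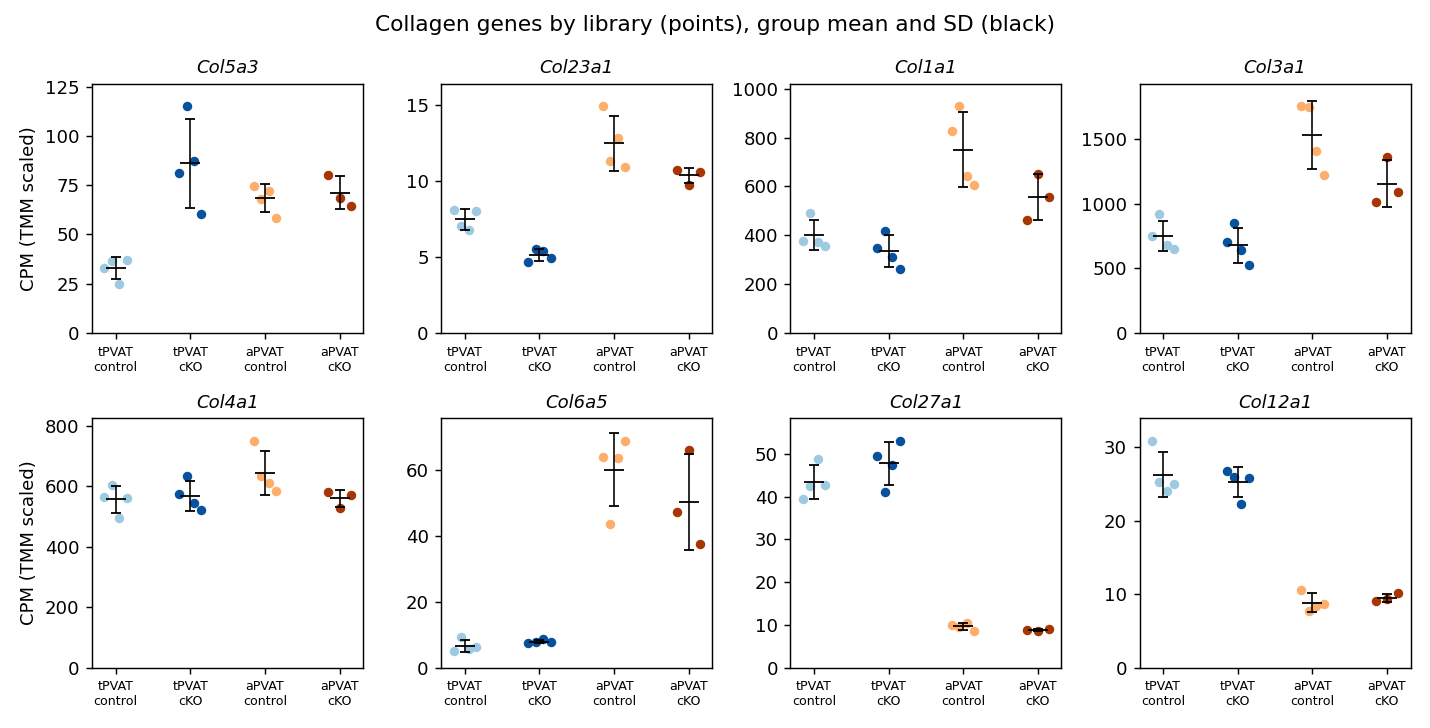
CPM of 8 collagen genes by library (points), with group means and SD (black). Col5a3 in tPVAT cKO (60.5 to 115 CPM) lies above tPVAT controls (24.9 to 37 CPM) and around both aPVAT groups, and Col27a1 and Col12a1 separate the depots in the opposite direction to Col6a5.

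Between depots, the share of collagens called was somewhat above that of all genes. It was 66.7% against 56.6% in controls and 64.3% against 52.6% in cKO. In controls, 22 of 42 were higher and 6 lower in aPVAT than in tPVAT, with a median log2 fold change of 0.47 against 0.04 over all genes. Of all genes 56.6% were called, 29.3% higher and 27.3% lower. Of the 10 fibrillar genes tested 8 were higher and 2 lower, of the 6 type IV genes 1 was higher, and of the 26 others 13 were higher and 4 lower. In cKO, 20 were higher and 7 lower, with 52.6% of all genes called (27.2% higher and 25.4% lower). These comparisons use the same libraries as the genotype comparisons. Some scarce members passed the low-count filter only through the depot where they were high, so their depot tests are not independent of it. These were Col6a4, Col17a1, Col24a1, Col25a1 and Col26a1 through aPVAT, and Col10a1 through tPVAT. The split depends on scaling. With total counts in place of TMM the median of all genes rose to 0.784 in controls and 0.694 in cKO, and 36 collagens were higher and 3 lower in controls, and 34 and 4 in cKO. With totals outside the mitochondrial genome the medians were 0.397 and 0.391, and the counts were 28 and 6, and 25 and 4.

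Among the abundant fibrillar genes, Col3a1 was 2.04 times as high in aPVAT controls as in tPVAT controls by means (log2 1.03, SE 0.157, adjusted p = 4.20e-05), Col1a1 1.88 times (0.91, SE 0.165, adjusted p = 0.00021) and Col1a2 1.61 times (0.69, SE 0.131, adjusted p = 0.000322). From the values above, no aPVAT control overlapped a tPVAT control for any of these, and each was also called in cKO (0.76, 0.74 and 0.56). Col5a3 was higher in aPVAT controls by 1.05 (SE 0.164, adjusted p = 5.01e-05), but in cKO the depots overlapped (-0.27, SE 0.175, adjusted p = 0.204). Without tPVAT cKO 4, the lowest of its group, Col5a3 passed as lower in aPVAT cKO (adjusted p = 0.042).

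Col24a1, a scarce fibrillar chain, held 0, 0, 1 and 3 counts in tPVAT controls and 16, 14, 12 and 18 counts in aPVAT controls. These did not overlap, and the log2 fold change was 3.07 (SE 0.622, adjusted p = 0.000568). The highest tPVAT library held 8 counts, so Col24a1 passed the low-count filter only through aPVAT, where it was high. Its test and separation between depots are therefore not independent of the filter.

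Col11a1, a fibrillar chain best known from cartilage, stood at 0.831, 0.862, 1.01 and 1.15 CPM in tPVAT controls and 1.13, 1.02, 0.637 and 0.882 CPM in tPVAT cKO. It stood at 3.11, 3.03, 2.7 and 2.33 CPM in aPVAT controls and 3.57, 4.16 and 3.12 CPM in aPVAT cKO. Every aPVAT library lay above every tPVAT library (1.54, SE 0.174, adjusted p = 1.82e-06 in controls). Its partner Col11a2 went the other way, from 2.63 ± 0.898 CPM in tPVAT controls to 1.38 ± 0.203 CPM in aPVAT controls (SD, n = 4 each), by -0.92 (adjusted p = 0.00126), and with total counts this was not called (-0.18, adjusted p = 0.42). The summed level of 9 cartilage markers was 11.7 to 14.3 CPM in tPVAT controls and 15 to 22.7 CPM in aPVAT controls. Of these, Comp, Sox9 and Cnmd were higher by 0.60, 0.69 and 0.71, and Acan, which encodes aggrecan, was lower by -2.25 (adjusted p = 0.000305). Their part in the change of Col11a1 was not tested.

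Col27a1, a fibrillar chain of chromosome 4 (63214004 to 63334991, plus strand), fell furthest among the collagens with a mean log2 CPM of at least 1. It stood at 39.4, 42.5, 48.9 and 42.8 CPM in tPVAT controls and 49.6, 41.2, 47.3 and 53 CPM in tPVAT cKO. In aPVAT it stood at 10, 9.5, 10.5 and 8.69 CPM in controls and 8.83, 8.58 and 9.16 CPM in cKO. The lowest tPVAT library, at 39.4 CPM, was far above the highest aPVAT library, at 10.5 CPM. The log2 fold change was -2.16 in controls (SE 0.0891, adjusted p = 9.33e-11) and -2.43 in cKO (SE 0.101, adjusted p = 1.52e-10).

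The type IV genes differed little between depots under TMM. Col4a5, which is X-linked, was higher in aPVAT controls by 0.30 (SE 0.122, adjusted p = 0.0448), with overlapping groups, and the call was lost in 9 of 15 fits that left out 1 library (adjusted p 0.0522 to 0.149). Col4a1 missed the threshold (0.21, SE 0.088, adjusted p = 0.0523), and passed without tPVAT control 2 (0.0359), aPVAT control 3 (0.0497) or aPVAT control 4 (0.0316). Col4a2 stood at -0.14 in controls (adjusted p = 0.169), where it passed without aPVAT control 1 (0.0146), and was lower in cKO (-0.28, SE 0.0896, adjusted p = 0.0156), where it was lost without aPVAT cKO 3 (0.0615). With total counts Col4a2, Col4a3, Col4a4 and Col4a6 changed sign in both genotypes, and Col4a1 did in cKO.

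The alternative type VI chains were also higher in aPVAT. Col6a4, Col6a5 and Col6a6 encode the alternative long chains that can take the place of Col6a3, and they lie side by side on the minus strand of chromosome 9, from 105687809 (Col6a6) to 106096783 (Col6a4). Col6a5 stood at 5.06, 9.31, 5.81 and 6.17 CPM in tPVAT controls and 7.36, 7.76, 8.63 and 7.86 CPM in tPVAT cKO, and at 63.8, 43.7, 63.7 and 68.7 CPM in aPVAT controls and 47.2, 66 and 37.4 CPM in aPVAT cKO. Col6a6 stood at 8.41, 12.7, 7.92 and 7.68 CPM and 8.01, 10.4, 9.41 and 8.34 CPM in tPVAT, and at 41, 34.8, 35.4 and 32.4 CPM and 23.7, 34.1 and 27.8 CPM in aPVAT, controls first. For both, all aPVAT libraries lay above all tPVAT libraries. The log2 fold changes in controls were 3.18 (SE 0.205, adjusted p = 3.09e-09) and 1.97 (SE 0.155, adjusted p = 3.04e-08), and in cKO 2.67 and 1.66. Col6a4 was scarce, at 0.127 CPM in tPVAT controls and 0.816 CPM in aPVAT controls by means, and rose by 2.68 (SE 0.408, adjusted p = 4.03e-05).

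The common type VI chains had smaller differences. Col6a1 rose by 0.50 in aPVAT controls (SE 0.117, adjusted p = 0.0017) and Col6a3 by 0.44 (SE 0.115, adjusted p = 0.00422), while Col6a2 did not pass (0.29, SE 0.12, adjusted p = 0.0542). It passed without tPVAT control 2 (0.0317), aPVAT control 3 (0.0391), aPVAT control 4 (0.0152) or aPVAT cKO 3 (0.0482). Per length, Col6a5 went from 0.7 ± 0.199 to 6.37 ± 1.18 CPM per kb between the control depots (SD, n = 4 each), and Col6a3 from 8.15 ± 0.595 to 11 ± 2.02 CPM per kb. In cKO the calls of Col6a1 (0.31, adjusted p = 0.0498) and Col6a3 (0.34, adjusted p = 0.031) were lost in 10 and 5 of the fits that left out 1 library.

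Of the remaining genes, Col28a1, a collagen found around peripheral nerves, stood at 7.46, 5.55, 6.22 and 8.55 CPM in tPVAT controls and 10.4, 8.86, 6.66 and 8.4 CPM in tPVAT cKO. In aPVAT it stood at 19.2, 20.3, 21.5 and 18 CPM in controls and 25.1, 26.8 and 21.2 CPM in cKO. The depots did not overlap (1.51, SE 0.141, adjusted p = 2.12e-07 in controls, and 1.5 in cKO). The Schwann cell markers Mbp and Sox10 were called higher in aPVAT controls by 1.02 (SE 0.0938, adjusted p = 1.74e-07) and 1.37 (SE 0.211, adjusted p = 4.59e-05). Their part in the rise of Col28a1 was not tested.

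Col12a1, a fibril-associated collagen, stood at 30.8, 25.3, 24 and 24.9 CPM in tPVAT controls and 26.8, 25.9, 22.2 and 25.8 CPM in tPVAT cKO, and at 10.6, 7.66, 8.36 and 8.73 CPM in aPVAT controls and 9.02, 9.38 and 10.1 CPM in aPVAT cKO. Every tPVAT library lay above every aPVAT library (-1.57, SE 0.104, adjusted p = 4.05e-09 in controls, and -1.41 in cKO). Col13a1, a transmembrane collagen, stood at 2.73, 2.75, 3.22 and 3.42 CPM and 2.63, 2.25, 2.63 and 3.11 CPM in tPVAT, and at 1.94, 1.26, 1.71 and 1.08 CPM and 1.2, 1.2 and 1.33 CPM in aPVAT, controls first. It was lower in aPVAT controls by -1.01 (SE 0.169, adjusted p = 0.000102), and with total counts this was not called (-0.27, adjusted p = 0.125). Col14a1, a fibril-associated collagen of like structure to Col12a1, showed no call (-0.15, SE 0.166, adjusted p = 0.452).

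Col15a1 was higher in aPVAT controls (0.50, SE 0.125, adjusted p = 0.00272), although aPVAT control 4 lay within the tPVAT range. Col18a1 was not called (-0.25, SE 0.117, adjusted p = 0.0767), but passed without aPVAT control 1 (adjusted p = 0.00257). Col23a1 was higher in aPVAT in controls (0.74, SE 0.102) and in cKO (1.01, SE 0.111). Col7a1, which forms anchoring fibrils, was lower in aPVAT controls by -1.07 (SE 0.254, adjusted p = 0.00206), and with total counts this was not called (-0.32, adjusted p = 0.24). Col16a1 and Col19a1, both fibril-associated, rose by 0.61 and 1.12 in aPVAT controls, and Col26a1 by 1.28. Of the type V partners, Col5a1 rose by 0.55 and Col5a2 by 0.41. Col25a1, a transmembrane collagen of neurons, passed in cKO alone (2.12, SE 0.604, adjusted p = 0.00797, on 0 to 13 counts per library). Its genotype effect was not shown to differ between depots (0.84, adjusted p = 0.938). Col25a1 held 13, 11 and 11 counts in aPVAT cKO and at most 8 in any other library. It thus passed the low-count filter, with its minimum count of 10, only through the group where it was high, so its call carries little weight. Col8a1, Col8a2, Col9a3, Col20a1 and Col22a1 were not called in any comparison. Col9a3 did not overlap between the control depots (0.85, SE 0.406, adjusted p = 0.0854), and passed without tPVAT cKO 3 (0.0376) and with only the control libraries in the fit (0.0463). Of the scarce genes, Col10a1, a short-chain collagen of growth plate cartilage, was lower in aPVAT controls by -3.15 (SE 0.375), from 0.662 to 0.0727 CPM. It lies within Nt5dc1 on the opposite strand, whose level was 23.4 ± 2.12 CPM in tPVAT controls and 12.2 ± 2.48 CPM in aPVAT controls (SD, n = 4 each). Whether strand was used in counting is not given in the sources used here, so reads of these genes may not be told apart. The same limit holds for Col9a3, whose exons overlap those of Tcfl5 on the opposite strand. By means, Tcfl5 stood at 0.133 CPM in tPVAT controls and 0.211 CPM in aPVAT controls. Exons of Col20a1 overlap those of BX649560.1 on the same strand. The calls of Col17a1 and Col9a2, both under 0.5 CPM on average in controls, were lost in 8 fits that left out 1 library and in 1 fit (without tPVAT control 4, adjusted p = 0.0502).

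Markers of several cell types differed along with these genes. The sum of the 6 fibroblast markers was 466 to 545 CPM in tPVAT controls and 742 to 975 CPM in aPVAT controls, and 4 of 6 were called higher, Pdgfra by 0.92 and Dpt by 1.38. All 3 macrophage markers were higher, endothelial markers summed to 736 to 829 and 906 to 1149 CPM (3 of 5 higher and Kdr lower), and 3 of 4 skeletal muscle markers were lower, with sums of 8.33 to 48.9 and 1.93 to 5.17 CPM. The 4 adipocyte markers summed to between 5560 and 6630 CPM in tPVAT controls and between 6858 and 8271 CPM in aPVAT controls, with 2 called higher, Adipoq by 0.91 and Cidec by 0.84. Of 4 mesothelium markers 1 was called, Msln, which was lower by -1.65 (adjusted p = 0.017). Their part in the depot differences of the collagens was not tested.

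**Figure D4:**
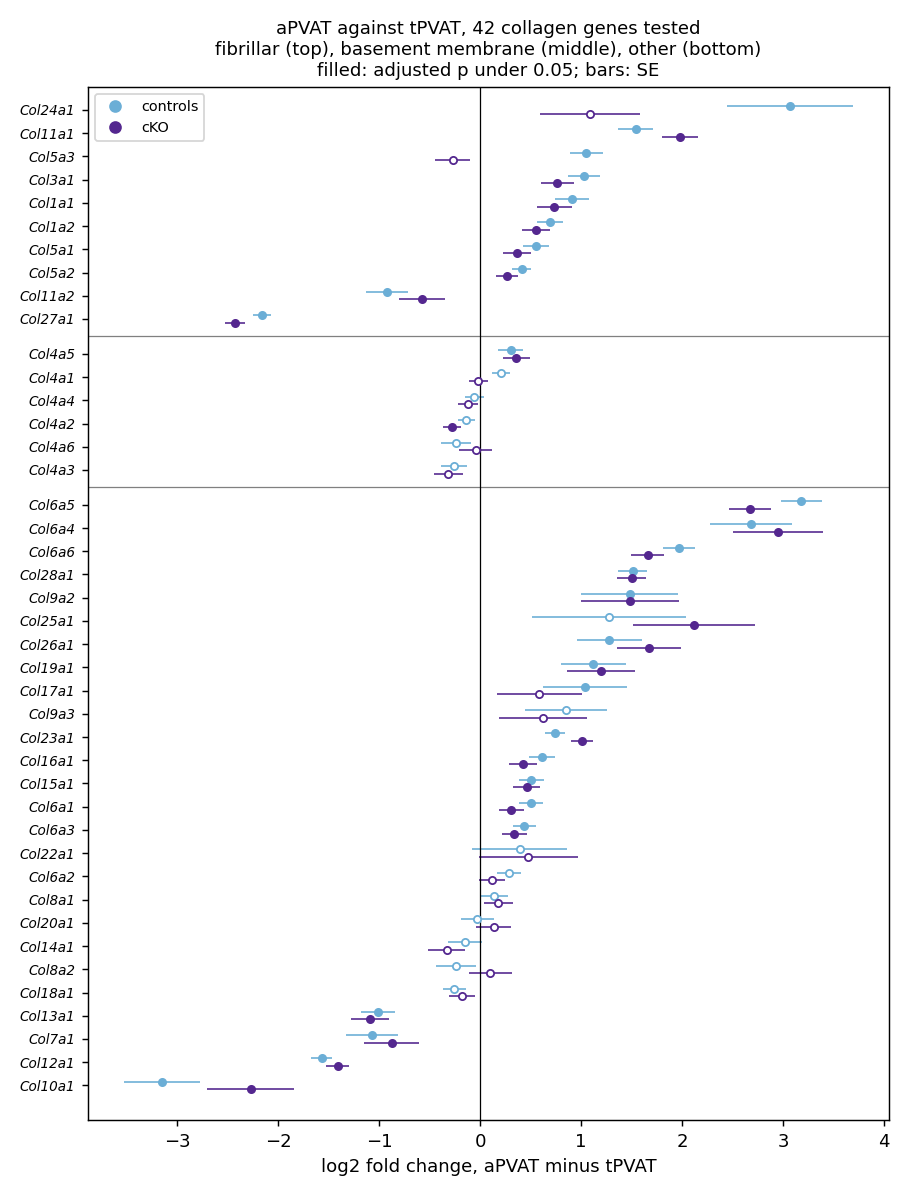
Log2 fold change of aPVAT against tPVAT for the 42 collagen genes tested, in controls (light blue) and cKO (purple), with bars of 1 SE and filled points for an adjusted p under 0.05. Type IV genes lie near 0, Col6a5 (3.18 in controls) lies far to the right and Col27a1 (-2.16) to the left, and Col5a3 lies at 1.05 in controls and -0.27 in cKO.

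Count ratios between genes do not depend on the scaling of libraries. Ratios were taken for 9 pairs, chosen after seeing the data, in 36 comparisons. The pairs share a trimer or a bidirectional promoter, except Col3a1 and Col1a1, which belong to different collagens. Col4a1 and Col4a2 lie head to head on chromosome 8, with ends that overlap by 22 bases, and so share 1 promoter region. Their ratio was 1.31, 1.31, 1.25 and 1.31 in tPVAT controls, 1.33, 1.39, 1.25 and 1.22 in tPVAT cKO, 1.64, 1.57, 1.67 and 1.73 in aPVAT controls and 1.62, 1.53 and 1.52 in aPVAT cKO. It was thus higher in each aPVAT library than in any tPVAT library. The difference was 0.35 on the log2 scale in controls and 0.27 in cKO, each with p = 0.0286 by a two-sided exact permutation test, the smallest this design allows, and 0.103 after adjustment over 36 tests. With this floor the adjusted values of 36 tests could hardly fall below the threshold, so they do not bear on whether ratios differed.

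Col4a5 and Col4a6, which are also head to head (on chromosome X, 1308 bases apart), had a ratio of 1.48 to 1.76 and 1.67 to 1.9 in tPVAT controls and cKO, and of 1.95 to 2.62 and 2.24 to 2.4 in aPVAT. The third such pair, Col4a3 and Col4a4 (71 bases apart on chromosome 1), overlapped between depots in both genotypes, at 0.513 to 0.572 in tPVAT controls and 0.392 to 0.563 in aPVAT controls. The ratio of Col6a1 to Col6a2 was 0.863 to 0.918 in the 8 tPVAT libraries and 1 to 1.07 in the 7 aPVAT libraries. That of Col1a1 to Col1a2 was 0.688 to 0.822 in tPVAT and 0.832 to 0.974 in aPVAT. Of the other pairs, Col5a3 to Col5a1 separated the depots in controls but not in cKO, and the rest did not separate them. Col5a1 to Col5a2 was 0.93 to 1.08 in tPVAT controls and 1.01 to 1.17 in aPVAT controls. Col6a3 to Col6a1 was 0.595 to 0.641 and 0.567 to 0.599. Both pairs also overlapped between depots in cKO and between genotypes in each depot. Between genotypes in tPVAT, the ratio of Col3a1 to Col1a1, which do not share a trimer, was 1.83 to 1.99 in controls and 2.02 to 2.05 in cKO. These did not overlap, and the change was 0.12 on the log2 scale (exact permutation p = 0.0286, adjusted p = 0.103). The ratio of Col5a3 to Col5a1, the main type V chain, was 0.286 to 0.431 in tPVAT controls and 0.774 to 1.11 in tPVAT cKO. It was 0.442 to 0.587 in aPVAT controls and 0.536 to 0.793 in aPVAT cKO. It thus did not overlap between genotypes in tPVAT or between the control depots.

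**Figure D5:**
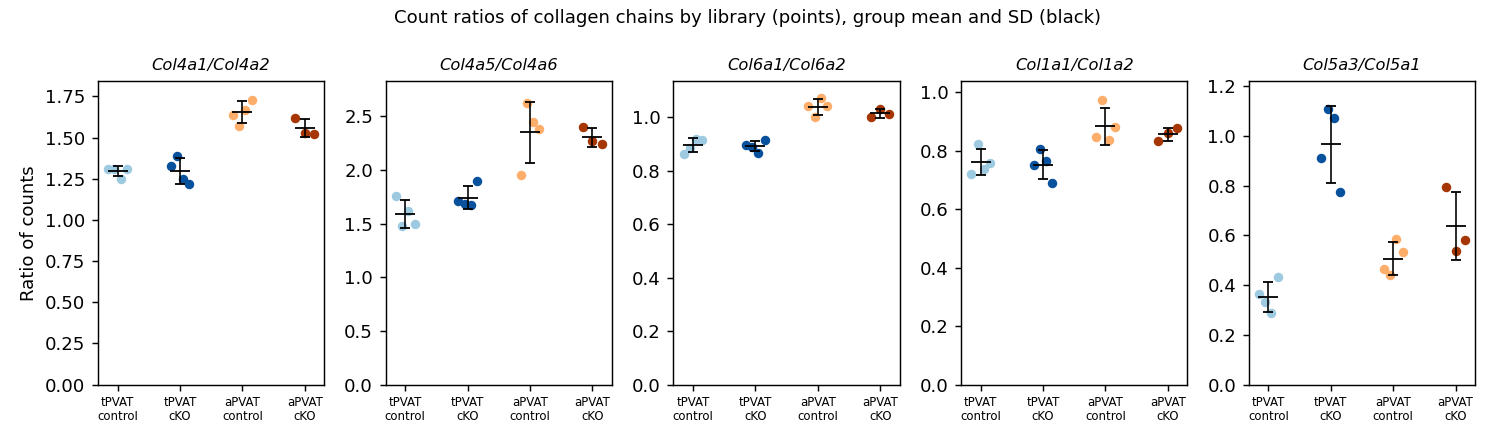
Ratio of counts between collagen chains for 5 of the 9 pairs, by library (points), with group means and SD (black) and axes from 0. Col5a1 to Col5a2 and Col6a3 to Col6a1, which overlapped between depots, are not shown. The first 4 pairs separate the depots in both genotypes. Col5a3 to Col5a1 separates tPVAT cKO (0.774 to 1.11) from tPVAT controls (0.286 to 0.431), and separates the depots in controls alone.

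Genes that fold, process, crosslink, bind or degrade collagen were followed in a list of 103. In tPVAT the cKO had 2 called higher and 6 lower, with a median of -0.07, where 12% of all genes were called. The count was unsteady. With total counts it was 3 higher and 1 lower, with DESeq2 3 and 10, with only the tPVAT libraries 8 and 13, and with library weights 10 and 14. It fell to 3 genes in all without tPVAT control 4, tPVAT cKO 1 or tPVAT cKO 3, to 4 without tPVAT control 3, and to 5 without tPVAT control 2 or tPVAT cKO 4. It rose to 17 without aPVAT control 1, to 13 without aPVAT control 2, and to 13 without aPVAT control 2 and aPVAT cKO 4 together. Loxl1, a crosslinking lysyl oxidase-like enzyme, fell from 103 ± 11.4 to 72.6 ± 5.2 CPM (SD, n = 4 each) by -0.50 (SE 0.109, adjusted p = 0.0066), and was called in all 25 alternatives. Agrn, a basement membrane proteoglycan, fell by 0.28 on the log2 scale and was lost without tPVAT cKO 1 (adjusted p = 0.0562) and with total counts (0.099). Nid1, which links laminin to type IV collagen, rose by 0.32 and was lost without tPVAT control 3 (0.0537). The other 5 were Ddr1, a collagen receptor (0.44), Plod1, a lysyl hydroxylase of collagen (-0.27), Timp4, an inhibitor of matrix metalloproteinases (-0.53), Lama5, a laminin chain (-0.30), and Smad3 of TGF-beta signalling (-0.25). Each of these 5 lost its call in 5 to 9 of 25 alternatives, among them several that left out 1 tPVAT library (adjusted p up to 0.12). Qsox1, a secreted enzyme that forms disulfide bonds, rose in tPVAT (1.16, SE 0.0787) and aPVAT (0.49, SE 0.0828, adjusted p = 0.00522, but 0.0708 in a fit without tPVAT). In aPVAT only Dpt of the 103 was called, against 1.53% of all genes.

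Between the control depots, 51 of the 103 were higher and 12 lower in aPVAT, with a median of 0.31. Over all genes 29.3% were higher and 27.3% lower. With total counts the list had 93 higher and 2 lower, and with totals outside the mitochondrial genome 82 and 6. By role, 8 of 20 folding and modification genes were higher and 1 lower, 9 of 15 processing and crosslinking genes higher and 1 lower, 9 of 18 breakdown genes and inhibitors higher and 2 lower, 8 of 13 receptors higher and 3 lower, 7 of 14 fibril organisers higher and 2 lower, 7 of 10 basement membrane partners higher and none lower, and 3 of 13 TGF-beta genes higher and 3 lower. Nid1 rose by 1.09 (SE 0.0819) and Lamc1, a laminin chain, by 0.63, while Col4a1 and Col4a2 were not called under TMM. Both chains were called higher with total counts (0.95 and 0.61) and with totals outside the mitochondrial genome (0.57 and 0.22). Dcn, which encodes the fibril-binding proteoglycan decorin, rose by 1.18, the protease Ctsk by 1.13 and the propeptidase Adamts14 by 1.44. Ltbp2 was lower by -1.48. Loxl1 was lower by -0.68, but not with total counts (0.065, adjusted p = 0.62).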

How the data were processed

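RNA of perivascular fat was sequenced from stranded mRNA libraries, per the labels' protocols. The authors deposited raw counts per Ensembl gene for 15 libraries. Per the submitters' processing notes the build was mm10, and they name Salmon, Subread and DESeq2 1.42.1. The counting tool, its annotation and its strand setting were not given in the sources used here. Symbols, locations and lengths came from GENCODE M21 on GRCm38, the mm10 assembly, which held 42468 of 43352 identifiers (98%). The edgeR package (4.0.16, in R 4.3.3) was applied with filterByExpr (minimum count 10, 19645 genes kept), TMM scaling, and a quasi-likelihood fit of group means to all 15 libraries. P-values were adjusted by Benjamini and Hochberg over all genes tested, with a threshold of 0.05. The SE is the size of the log2 fold change divided by the square root of F. Of the methods, only the edgeR fit was tested on simulated counts. These had changes in tPVAT cKO alone and no shift in composition between depots, so they do not bear on the depot comparisons. Ratios were tested by exact permutation in scipy 1.17.1. Alternatives covered scaling, the filter, DESeq2 1.42.0, limma 3.58.1, the libraries in the fit, replicate blocks and leaving out each library.

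Values in every library are given for Col1a1, Col1a2, Col3a1, Col4a1, Col4a2, Col6a3, Col15a1 and Col18a1, for members called in a genotype comparison or its difference between depots, and for the 5 called members with the largest rise and the 5 with the largest fall between control depots at a mean log2 CPM of at least 1 (only 3 fell). Of the role lists, up to 4 genes with the smallest p could be named. The members, lists and rules were chosen with earlier results of these data known. No pair of libraries within a group looked like 1 library counted 2 times (chi-square per degree of freedom 10.5 to 142). Results for some marker genes are not reported here.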

Additional observations from a re-analysis of the deposited data

Results flagged for a closer look

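The difference between the genotype effects on Col5a3 in aPVAT and tPVAT, -1.33 on the log2 scale, passed the test of the difference itself. Single libraries stood far from the rest of their group by Dixon's test (the gap to the nearest library over the range of the group) in 9 of 126 combinations of gene and group of 4, where chance flags about 1 in 20. In tPVAT control 2, Col1a1 stood at 491 CPM (next 376), Col6a1 at 179 CPM (next 154) and Col6a6 at 12.7 CPM (next 8.41). In aPVAT control 4, Col4a4 stood at 12.1 CPM (next 14.6), Col9a2 at 0.221 CPM (next 0.453) and Col10a1 at 0.11 CPM (next 0.0614). Col7a1 stood at 0.594 CPM in aPVAT control 2 (next 0.418), Col15a1 at 134 CPM in tPVAT cKO 2 (next 105) and Col22a1 at 0.199 CPM in tPVAT cKO 3 (next 0.0959).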

How the results depend on the processing

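Collagens called kept within 1.5 times the main count in all alternatives but 1: the difference between genotype effects went from 1 to 0 (Col5a3, -1.27, adjusted p = 0.0521) without aPVAT control 2 and aPVAT cKO 4 together, where fewer libraries were fitted. These were planned as libraries with over 1% structural RNA, but control 2 held 0.929%. Leaving out 1 library gave 2 to 3 (tPVAT genotype), 0 (aPVAT genotype), 26 to 29 (control depots), 20 to 28 (cKO depots) and 1 (difference of effects). With the coding transcript length, fibrillar shares were 50.2%, 48.3%, 61.3% and 57.8% and type IV shares 24.2%, 26.1%, 17.2% and 19.0% in tPVAT controls, tPVAT cKO, aPVAT controls and aPVAT cKO.

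Among values called under TMM or under the alternative, signs reversed only in depot comparisons under other scaling. With total counts, controls gave Col4a2 0.61, Col4a3 0.48, Col4a4 0.68, Col4a6 0.50, Col8a2 0.51, Col14a1 0.59, Col18a1 0.49 and Col20a1 0.71, and cKO gave Col4a1 0.63, Col4a2 0.37, Col4a3 0.34, Col4a4 0.53, Col4a6 0.61, Col11a2 0.084 and Col18a1 0.47. With totals outside the mitochondrial genome, controls gave Col4a2 0.22 and Col4a4 0.30, and cKO gave Col4a1 0.33 and Col4a2 0.067. Of the other genes named, total counts gave Plod1 0.52, Loxl1 0.065 and Lama5 0.71 in controls and Plod1 0.50, Loxl1 0.095 and Prdm16 0.17 in cKO, and totals outside the mitochondrial genome gave Plod1 0.13 and Lama5 0.33 in controls and Plod1 0.20 in cKO. These scalings move the median of all genes.

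Same-numbered libraries correlated at -0.222 to 0.169 over 21 pairs, and 10 of 21 correlated best with their own number. Most of these pairs join control to cKO libraries, which cannot come from the same mouse. The check therefore does not settle whether same-numbered libraries of both depots share a mouse. The labels give no pairing, so the main fit used none. With the number as a replicate block, 2, 0, 30, 27 and 1 collagens were called in the order above, and with animal as a random block (correlation 0.0217) 3, 0, 28, 26 and 1.

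Over all genes, 2367 were called in tPVAT cKO, but 3726 with only those libraries and 4080 with library weights. In aPVAT cKO 301 were called, but 606 with DESeq2, 92 with only those libraries and 161 without aPVAT cKO 1. For the difference of effects 154 were called, and 350 with DESeq2. Depth limits Col2a1, Col9a1, Col24a1 and Col25a1, with 52, 56, 124 and 64 counts in all.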
